A study of Homo sapiens with 4 samples.

Results

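Cancer-testis antigen genes of the MAGE-A, MAGE-B, MAGE-C, GAGE, PAGE, XAGE, SSX, CTAG and CT45 families, with PRAME, were followed in LNCaP and C4-2 prostate cancer cells. Members were taken by name: each deposited RefSeq transcript whose symbol starts with MAGEA, MAGEB, MAGEC, GAGE, PAGE, XAGE, SSX, CTAG or CT45, and PRAME. That gave 73 of 22985 gene symbols. Copies with the same tag counts in all 4 libraries were counted once, which left 67 distinct signals. The name rule also caught 8 CTAGE genes and SSX2IP, which are not members of the families named above and are described apart. This left 58 signals, here called the antigen families proper.

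Total RNA of both lines was sequenced after depletion of ribosomal RNA, in 2 libraries per line. LNCaP, an androgen-dependent line set up from a lymph node metastasis, carries the label of primary cancer, and C4-2, derived from LNCaP, that of castration-resistant cancer. Both were grown in RPMI medium with serum from which steroids had been stripped. It is not stated whether replicate libraries stem from different cultures, and p-values therefore measure only the spread between these samples and may reflect technical variation alone. The stored name of each sample's data is that of the other line. Groups follow the titles, and every direction below would turn round if the stored names were right.

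Sense tags of named genes came to 58.9 and 70.5 M (M, mega) for the LNCaP-labelled samples and 163.1 and 119.1 M for the C4-2-labelled ones. Luminal prostate markers summed to between 3940 and 4110 CPM (counts scaled to library size) in every library. All 10 were tested: in the libraries labelled C4-2, 6 rose and 4 fell, with a median log2 fold change of 0.68. Basal markers reached at most 0.204 CPM in sum and immune markers 0.216. KLK3, the gene for prostate-specific antigen and one of the 4, had 533 and 557 CPM in the LNCaP-labelled libraries and 6.14 and 6.23 in the C4-2-labelled ones. Of 7 germ cell markers, DAZL, PRM1, PRM2 and TNP1 were at 0 in every library. Their summed level was 0.45 and 0.495 CPM in the LNCaP-labelled libraries and 0.186 in both C4-2-labelled ones. The 2 that could be tested, SYCP3 (-4.11) and ACRV1 (-0.94, and 0.06 with library totals), were both called lower. SYCP3 passed the filter on low counts only through the LNCaP-labelled libraries, so the filter fixed its direction. Fibroblast and endothelial markers, nearly all COL1A1, summed to 7.15 and 8.42 CPM in the LNCaP-labelled libraries and to 2.74 and 2.82 in the C4-2-labelled ones, and the part of these and the germ cell markers in the results was not tested.

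Cancer-testis antigens are proteins made in male germ cells and placenta, silent in most adult tissues, and made again in many tumours, where T cells can recognise them. Most of their genes lie in recent repeats on the X chromosome and are kept off in somatic cells by methylation of CpG-rich promoters. Tumours often express several of them at once.

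In the C4-2-labelled libraries most tested antigen genes were lower. Of the 67 signals, 51 passed the filter on low counts. By edgeR's quasi-likelihood test at a Benjamini-Hochberg adjusted p under 0.05, 39 of these were lower, 5 were higher and 7 did not pass. Among the 42 tested antigen genes proper, 31 were lower and 4 higher. The test called 80.0% of all 15975 genes tested, 40.2% higher and 39.7% lower, so the count to set against these shares is 39 of 51 lower. A fall of at least 4-fold was called for 22 of the 51, against 7.45% of all genes, and a rise of at least 4-fold for 1, against 2.68%. Of the 22, the SSX and CTAG genes, XAGE2, XAGE3, PAGE4, PAGE5 and MAGEA8 passed the filter only through the LNCaP-labelled libraries. The rise, MAGEC2, needed those labelled C4-2, so the filter fixed the direction of all these members. For 47 of the 51, the CPM of both libraries of a line lay above those of the other line, against 89.9% of all genes. The median log2 fold change was -0.92 over the 51 members and -2.61 over the 42 tested antigen genes proper, against -0.0113 over all genes. Setting genes with 0 tags in a line to a bound, 3 tags over that line, could not move either median. At that bound CTAG1 (-9.84), XAGE3 (-5.15) and SSX1 (-3.51) still lie below both. In these bulk samples, fewer cells that express a gene and less of its RNA per cell cannot be told apart.

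Levels are scaled by TMM, which sets the typical gene equal between the lines. Scaling by the library totals behind the deposited RPKM values (tags scaled by exon length and library total) instead raised the median of all genes by 1.016 on the log2 scale. With that scaling 21 of 47 tested members were higher and 18 lower, against 73.1% and 10.5% of all genes, of which 83.6% were called and 3.6% lower by at least 4-fold. The sense tags kept were 31.0% and 35.7% of those totals in the LNCaP-labelled libraries and 67.7% and 69.4% in the C4-2-labelled ones, and the part of this gap in the fold changes was not tested. Falls of 4-fold or more kept their direction wherever that scaling could test them. Of the smaller ones, all GAGE genes, MAGEA12 and PRAME were called higher with it, while the 8 CTAGE genes stood between -0.11 and 0.44 and 1 of them was called higher.

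**Figure D1:**
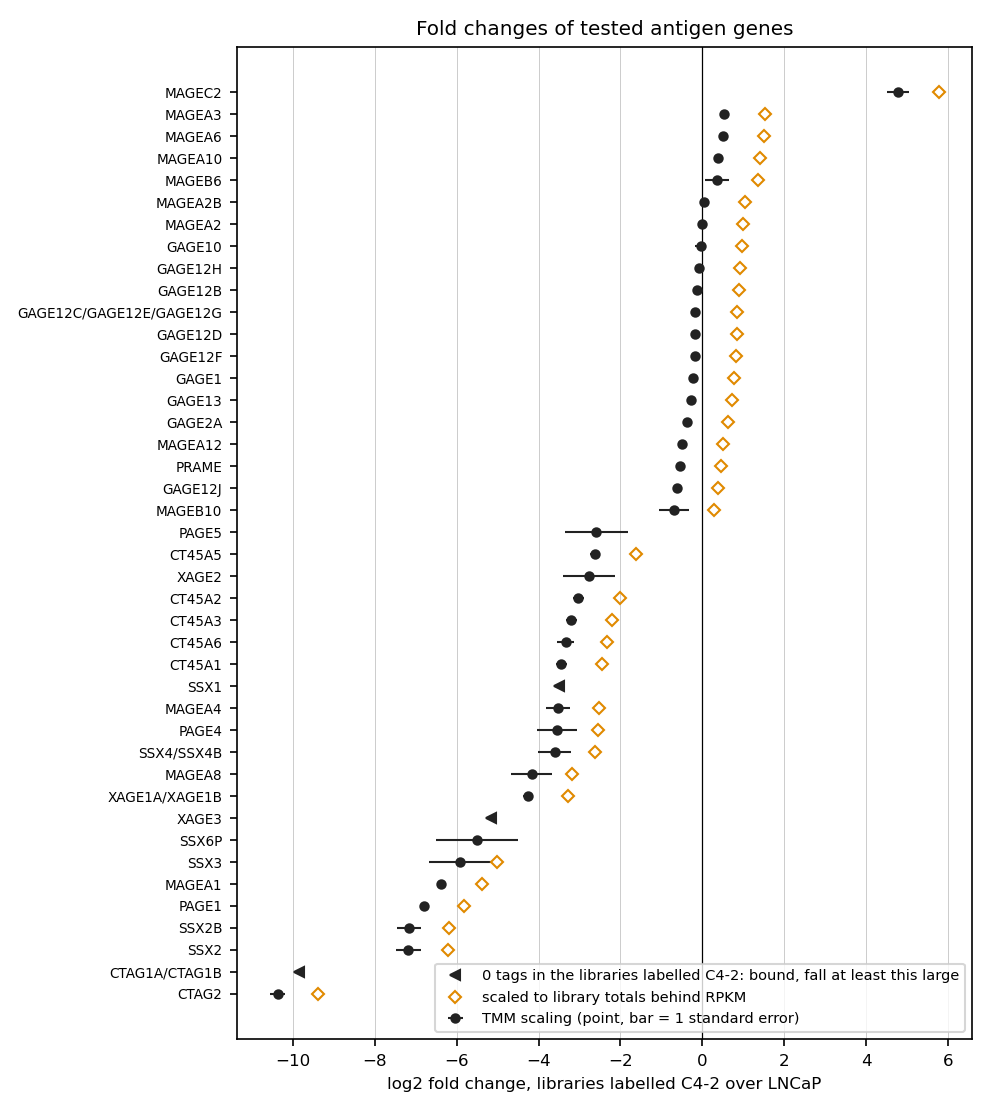
Log2 fold change of each tested antigen gene, libraries labelled C4-2 over LNCaP, with TMM scaling (black, bar = 1 standard error) and with library totals (open diamonds); triangles are bounds for genes with 0 tags in the libraries labelled C4-2. A group from CTAG2 at -10.37 to PAGE5 at -2.59 stands left of 0, the GAGE genes, MAGEA12 and PRAME lie just below 0 with TMM and above it with library totals, and MAGEC2 stands at 4.77.

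PAGE1 was the member with the highest level per length in the libraries labelled LNCaP and lost almost all of it in those labelled C4-2. It encodes a small acidic protein of the PAGE family, known from normal prostate, testis and prostate tumours. PAGE1 (hg19 chromosome X, 49452054 to 49460596, minus strand) had 439 and 472 CPM in the LNCaP-labelled libraries and 4.36 and 3.70 in the C4-2-labelled ones. The levels of the 2 lines lay far apart, and the replicates of each line lay close together. The log2 fold change was -6.81 ± 0.093 (SE, edgeR adjusted p = 2.24e-09). On the RPKM scale, which corrects for length, PAGE1 stood at 209.1 and 254.5 and ranked 115 and 117 of 22985 genes in the libraries labelled LNCaP. It ranked 7786 and 8246 in those labelled C4-2, at 4.38 and 3.83 RPKM. No run of 50 bases of its transcript occurs in another member.

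The GAGE genes, tandem repeats whose small acidic proteins were found as targets of killer T cells in melanoma, lie just beside PAGE1 and their fold changes lay within a narrow range around 0. GAGE1 ends 78.9 kb before PAGE1 and had 37.2 and 40.7 CPM in the LNCaP-labelled libraries and 33.5 and 33.3 in the C4-2-labelled ones. Its log2 fold change was -0.22 ± 0.060 (adjusted p = 0.00869), and with library totals it was 0.78. All 10 distinct GAGE signals lay between -0.62 and -0.04 on the log2 scale with TMM, 7 of them called lower and 3 not called, and all 10 were called higher with library totals, between 0.39 and 0.97. GAGE12J was the lowest, with 30.1 and 29.5 CPM in the LNCaP-labelled libraries and 20.0 and 18.8 in the C4-2-labelled ones, a log2 fold change of -0.62 ± 0.058 with TMM and 0.39 with library totals. GAGE2A stood at -0.38 and GAGE13 at -0.28 with TMM, and both turned positive with library totals, at 0.62 and 0.72. GAGE10 had 13.3 and 14.3 CPM in the LNCaP-labelled libraries and 11.3 and 15.7 in the C4-2-labelled ones, so that the lines overlapped (adjusted p = 0.807). GAGE12B and GAGE12H did not pass either. The calls of GAGE12C, GAGE12D and GAGE12F were lost when either C4-2-labelled library was left out and with DESeq2, and that of GAGE1 without the second of these libraries (adjusted p = 0.0524).

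Some GAGE copies cannot be told apart by these tags. GAGE12C, GAGE12E and GAGE12G had the same tag counts, GAGE12D differed from them by 1 tag, and no run of 50 bases in the transcripts of these 4 is absent from the other members. Other GAGE genes have more sequence of their own: 86.3% of the 50-base runs of GAGE1, 60.1% of those of GAGE10 and 18.3% of those of GAGE2A occur in no other member. Over all 26 GAGE rows with distinct positions the log2 ratio of summed CPM ran from -0.61 to -0.05. Many of these rows overlap in position or share their sequence, so they are not separate measurements and their agreement adds no support.

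The promoter windows of PAGE1 and GAGE1 are printed because these neighbours are relatives with very different fold changes. Each runs from 250 bases before to 50 after the start of the gene, from RefSeq on GRCh38.p14, 5′ to 3′ on the strand of the gene, with every CpG in capitals. PAGE1 is at chrX:49695935-49696234 on the minus strand and GAGE1 at chrX:49598763-49599062 on the plus strand.
PAGE1: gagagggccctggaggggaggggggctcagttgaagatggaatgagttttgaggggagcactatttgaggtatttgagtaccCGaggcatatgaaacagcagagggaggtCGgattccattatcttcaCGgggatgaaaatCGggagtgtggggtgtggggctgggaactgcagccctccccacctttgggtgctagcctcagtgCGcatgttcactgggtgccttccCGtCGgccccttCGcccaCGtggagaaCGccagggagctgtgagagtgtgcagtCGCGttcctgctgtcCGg
GAGE1: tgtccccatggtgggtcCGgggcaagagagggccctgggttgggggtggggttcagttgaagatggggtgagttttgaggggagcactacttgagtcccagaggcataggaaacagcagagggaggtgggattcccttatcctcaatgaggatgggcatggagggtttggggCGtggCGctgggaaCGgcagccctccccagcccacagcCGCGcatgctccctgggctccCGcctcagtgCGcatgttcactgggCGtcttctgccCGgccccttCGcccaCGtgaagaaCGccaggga
Both windows hold 13 CpG. Aligned end to end, with each changed, added or missing base counted as a difference, they were 58.7% identical. The 2 windows are offset against each other, and this offset lowers the value. GGAAG, the core that ETS factors bind, occurs 1 time in the PAGE1 window and in neither strand of the GAGE1 window.

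Other PAGE genes were expressed at a low level. PAGE4, which encodes a disordered stress protein of normal prostate, had 0.866 and 0.438 CPM in the LNCaP-labelled libraries and 0.0498 and 0.0593 in the C4-2-labelled ones. It fell by 3.55 ± 0.48 on the log2 scale (adjusted p = 0.000186). PAGE5 had 7 and 11 tags in the LNCaP-labelled libraries and 1 and 5 in the C4-2-labelled ones. Its log2 fold change was -2.59 ± 0.77 (adjusted p = 0.0141), and without the first library labelled C4-2 it was -1.65 and did not pass (adjusted p = 0.112), while without the second it was -4.2. PAGE2B had 8 tags in the LNCaP-labelled libraries and 2 in the C4-2-labelled ones, a ratio of 8.52 after scaling with a 95% counting interval of 1.7 to 82.3, and PAGE2 had none in any library.

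**Figure D2:**
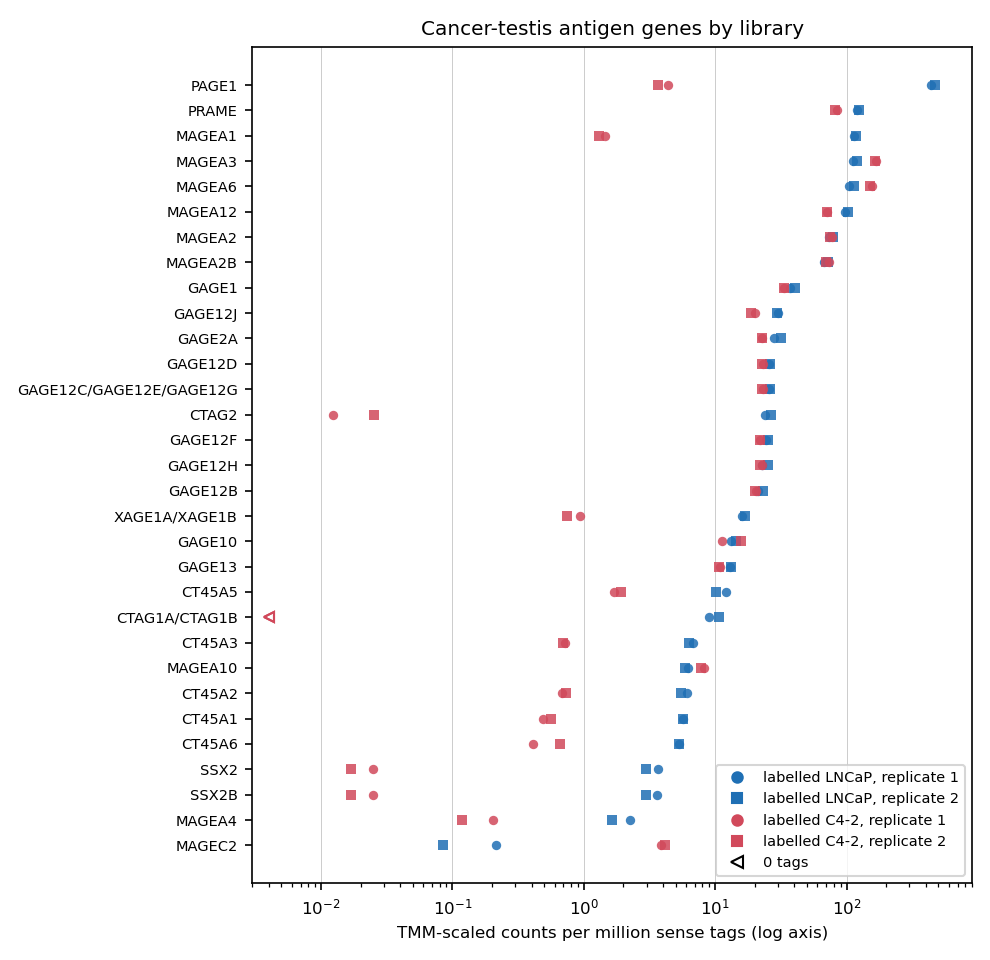
TMM-scaled CPM (log axis) of each antigen gene with at least 1 CPM on average in either line, by library (circles replicate 1, squares replicate 2; blue labelled LNCaP, red labelled C4-2), ordered by the level in the libraries labelled LNCaP. PAGE1, MAGEA1, CTAG2, CTAG1, XAGE1, CT45 and SSX2 show a wide gap to the left, MAGEC2 one to the right, and the GAGE and MAGEA2 points of both lines lie close together.

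Within the MAGE-A family, members went in different directions. MAGE-A proteins share a MAGE homology domain that binds RING-type ubiquitin ligases. MAGEA1, the founding gene of the family, found through T cells against melanoma, had 114 and 118 CPM in the LNCaP-labelled libraries and 1.44 and 1.31 in the C4-2-labelled ones. Its log2 fold change was -6.39 ± 0.069 (adjusted p = 1.67e-09), and -5.39 with library totals. MAGEA1 lies at hg19 chromosome X, 152481522 to 152486116, on the minus strand, and 99.3% of the 50-base runs of its transcript occur in no other member. On the RPKM scale it went from ranks 1232 and 1200 in the libraries labelled LNCaP to 11978 and 12072 in those labelled C4-2.

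MAGEA3 and MAGEA6, near-identical genes whose proteins activate the ubiquitin ligase TRIM28, were higher in the libraries labelled C4-2. MAGEA3 had 111 and 119 CPM in the LNCaP-labelled libraries and 167 and 164 in the C4-2-labelled ones, a log2 fold change of 0.52 ± 0.049 (adjusted p = 1.98e-05). MAGEA6 had 104 and 113 CPM in the LNCaP-labelled libraries and 156 and 151 in the C4-2-labelled ones, a log2 fold change of 0.50 ± 0.050. The lines did not overlap for either gene, and with library totals the rises were 1.53 and 1.51. About the same part of each transcript is shared: 57.0% of the 50-base runs of MAGEA3 occur in MAGEA6 and 56.4% the other way round. Whether the counts of the 2 genes share tags was not tested. By RPKM, MAGEA3 ranked 1285 and 1201 in the LNCaP-labelled libraries and 875 and 896 in the C4-2-labelled ones, where it was the highest member.

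The genes between MAGEA6 and MAGEA3 did not share that rise. MAGEA12 had 97.4 and 102 CPM in the LNCaP-labelled libraries and 70.4 and 70.7 in the C4-2-labelled ones, a log2 fold change of -0.50 ± 0.042 (adjusted p = 1.12e-05) that turned to 0.50 with library totals. MAGEA2 had 73.8 and 79.0 CPM in the LNCaP-labelled libraries and 77.7 and 74.9 in the C4-2-labelled ones, and these levels overlapped (adjusted p = 0.966, and 1.0 on the log2 scale with library totals). MAGEA2B, a copy of MAGEA2, stood at 0.04 (adjusted p = 0.497), and 97.2% of its 50-base runs occur in MAGEA2. The MAGEA2B position used lies within that of MAGEA2 on the same strand, so their values are not separate measurements. The difference between MAGEA3 and MAGEA12 was not tested, and any scaling of whole libraries moves both alike.

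Promoter windows of MAGEA3 and MAGEA12 are shown as those of close relatives in a single cluster with opposite signs under TMM. On GRCh38.p14 they lie at chrX:152698544-152698843 and chrX:152733612-152733911, both on the plus strand of that build, and capitals again mark CpG.
MAGEA3: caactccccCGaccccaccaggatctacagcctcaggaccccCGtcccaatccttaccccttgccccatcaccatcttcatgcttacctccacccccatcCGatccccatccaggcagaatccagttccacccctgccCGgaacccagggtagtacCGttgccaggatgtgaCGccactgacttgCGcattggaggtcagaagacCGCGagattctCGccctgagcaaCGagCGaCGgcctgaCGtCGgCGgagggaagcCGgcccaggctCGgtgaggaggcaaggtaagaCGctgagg
MAGEA12: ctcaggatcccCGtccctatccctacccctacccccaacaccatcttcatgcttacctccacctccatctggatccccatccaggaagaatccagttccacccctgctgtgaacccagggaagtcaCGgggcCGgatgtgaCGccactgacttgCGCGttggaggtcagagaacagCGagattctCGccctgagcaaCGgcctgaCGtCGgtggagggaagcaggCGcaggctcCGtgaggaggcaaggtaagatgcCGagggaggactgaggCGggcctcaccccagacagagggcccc
The MAGEA3 window holds 19 CpG and GGAAG 1 time, and the MAGEA12 window 15 CpG and GGAAG 3 times. Aligned end to end in the same way, they were 66.0% identical, again with an offset between the windows that lowers the value. The window of MAGEA6 has the same sequence as that of MAGEA3.

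Other MAGE-A genes had lower levels. MAGEA10 had 6.26 and 5.88 CPM in the LNCaP-labelled libraries and 8.18 and 7.73 in the C4-2-labelled ones, a log2 fold change of 0.39 ± 0.088 (adjusted p = 0.00363). MAGEA4, whose protein binds the DNA repair ligase RAD18, had 2.26 and 1.65 CPM in the LNCaP-labelled libraries and 0.205 and 0.119 in the C4-2-labelled ones, a log2 fold change of -3.53 ± 0.30. MAGEA8 had 18 and 27 tags in the LNCaP-labelled libraries and 3 and 2 in the C4-2-labelled ones and fell by 4.17 ± 0.51 (adjusted p = 0.000104). MAGE-A genes thus held 3 of the 4 rises among antigen genes proper, and also 3 falls of more than 4-fold. MAGEA11 had 11 and 3 tags in the LNCaP-labelled libraries and 11 and 6 in the C4-2-labelled ones, too few for the filter. MAGEA9 and its copy MAGEA9B had 7 and 3 tags in the LNCaP-labelled libraries and 9 and 5 in the C4-2-labelled ones, also under the filter.

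MAGEC2 was the only member that rose by more than 4-fold in the libraries labelled C4-2. Its protein, like that of MAGEA3, binds TRIM28. MAGEC2 (hg19 chromosome X, 141290128 to 141293076, minus strand) had 13 and 6 tags in the LNCaP-labelled libraries and 618 and 491 in the C4-2-labelled ones. These are 0.216 and 0.0848 CPM in the LNCaP-labelled libraries and 3.85 and 4.16 in the C4-2-labelled ones. The lines were far apart, and the log2 fold change was 4.77 ± 0.27 (adjusted p = 1.01e-06). It was 5.55 without the first library labelled LNCaP and 4.2 without the second. By RPKM the rise went from 0.034 and 0.015 to 1.29 and 1.44, so that MAGEC2 stayed well below MAGEA3. Its relatives MAGEC1 and MAGEC3 had too few tags to be tested: MAGEC1 had 1 and 0 in the LNCaP-labelled libraries and 2 and 6 in the C4-2-labelled ones, and MAGEC3 had 5 and 5 against 0 and 0, at least 7.1-fold lower with a floor of 3 tags over the group. The MAGEC2 window (GRCh38.p14, chrX:142205241-142205540, minus strand) is given as that of the strongest rise, with CpG in capitals.
MAGEC2: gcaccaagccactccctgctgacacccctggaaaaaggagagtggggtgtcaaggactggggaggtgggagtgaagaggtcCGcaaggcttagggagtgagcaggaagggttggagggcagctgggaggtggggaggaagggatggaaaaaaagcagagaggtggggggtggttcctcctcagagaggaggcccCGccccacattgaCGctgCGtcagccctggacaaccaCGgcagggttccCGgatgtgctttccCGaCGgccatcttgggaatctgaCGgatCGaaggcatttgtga
It holds 10 CpG and GGAAG 2 times, both strands searched.

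MAGE-B genes were nearly silent in both lines. Of 8 genes, MAGEB1, MAGEB2, MAGEB3, MAGEB4, MAGEB16 and MAGEB18 had 0 sense tags in every library, and a floor of 3 tags is all that a count of 0 allows, for counting error only. MAGEB6 had 16 and 20 tags in the LNCaP-labelled libraries and 54 and 44 in the C4-2-labelled ones (log2 fold change 0.36 ± 0.30, adjusted p = 0.297). MAGEB10 had 14 and 21 against 29 and 17 (log2 fold change -0.70 ± 0.37, adjusted p = 0.112). Neither difference passed, although the CPM of the 2 lines did not overlap for either gene. MAGEB6 was called higher with library totals (1.36, adjusted p = 0.000716), and MAGEB10 lower with the tags of both strands added (-0.81, adjusted p = 0.0407).

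CTAG1 and CTAG2 encode NY-ESO-1 and LAGE-1, antigens used as targets of tumour vaccines and engineered T cells, and went from clear expression to the limit of detection. CTAG2 (hg19 chromosome X, 153880246 to 153881853, minus strand) had 1443 and 1885 tags in the LNCaP-labelled libraries and 2 and 3 in the C4-2-labelled ones. That is 24.0 and 26.6 CPM in the LNCaP-labelled libraries and 0.0124 and 0.0254 in the C4-2-labelled ones, a log2 fold change of -10.37 ± 0.18 (adjusted p = 4.43e-09). At the first CTAG1 copy (153813418 to 153815075, plus strand), tags were 537 and 754 in the LNCaP-labelled libraries and 0 and 0 in the C4-2-labelled ones. CTAG1A and CTAG1B carry the same row there and count as 1 signal. The level was at least 916-fold lower, with a group at 0 tags set to the floor of 3 tags over the group. At the second copy (153845865 to 153847522, minus strand), tags were 369 and 420 in the LNCaP-labelled libraries and 2 and 0 in the C4-2-labelled ones. All 3 positions were lower. Of the 50-base runs of CTAG2, 33.2% occur in CTAG1A, and whether their counts share tags was not tested.

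The CT45 genes, a repeat cluster whose proteins are known as T cell targets in ovarian cancer, fell together. CT45A5 had 12.1 and 10.2 CPM in the LNCaP-labelled libraries and 1.69 and 1.92 in the C4-2-labelled ones, a log2 fold change of -2.63 ± 0.12 (adjusted p = 4.05e-07). CT45A1 had 5.71 and 5.65 CPM in the LNCaP-labelled libraries and 0.492 and 0.559 in the C4-2-labelled ones, a log2 fold change of -3.44 ± 0.14. CT45A2, CT45A3 and CT45A6 lay between these, at -3.03, -3.20 and -3.34. All 5 were called lower and no line overlapped the other, and with library totals all 5 stayed lower, between -2.44 and -1.62. Transcripts of this cluster share most of their sequence: of the 50-base runs of CT45A1, CT45A2, CT45A3 and CT45A6, between 5.2% and 12.2% occur in no other member, and whether the 5 counts share tags was not tested.

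SSX genes encode repressors of transcription with a KRAB-like domain, known as the fusion partners of SS18 in synovial sarcoma. SSX2 (hg19 chromosome X, 52780308 to 52790617, plus strand) had 3.65 and 2.98 CPM in the LNCaP-labelled libraries and 0.0249 and 0.0170 in the C4-2-labelled ones. Its log2 fold change was -7.18 ± 0.31 (adjusted p = 2.53e-07), and SSX2B, at the same position with nearly the same tags, stood at -7.16. SSX4 and SSX4B, with the same tags, had 29 and 42 in the LNCaP-labelled libraries and 6 and 6 in the C4-2-labelled ones, a log2 fold change of -3.61 ± 0.40. The other SSX genes had few tags, all mainly in the libraries labelled LNCaP. SSX3 had 15 and 23 tags in the LNCaP-labelled libraries and 0 and 1 in the C4-2-labelled ones, a scaled ratio of 80.9 with a 95% counting interval of 13.7 to 3280. The pseudogene SSX6P had 20 and 8 tags against 1 and 0, a ratio of 59.6 with an interval of 9.86 to 2440. SSX1 had 7 and 9 tags against 0 and 0 and was at least 11.4-fold lower. All 6 tested SSX signals were called lower, with a median of -6.28 on the log2 scale, or -5.70 with SSX1 at its bound. Each passed the filter on low counts through the libraries labelled LNCaP alone, so their shared direction was fixed by it and adds no support. SSX5, SSX7 and SSX8P were under the filter: SSX5 had 7 and 6 tags against 0 and 4, SSX7 had 6 and 7 against 1 and 0, and SSX8P had 1 and 3 against 0 and 0.

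XAGE1, known as an antigen of lung adenocarcinoma, followed the same direction. XAGE1A and XAGE1B share all tags and had 15.9 and 16.8 CPM in the LNCaP-labelled libraries and 0.934 and 0.746 in the C4-2-labelled ones, a log2 fold change of -4.27 ± 0.12 (adjusted p = 3.8e-08). XAGE3, a gene of placenta, had 23 and 27 tags in the LNCaP-labelled libraries and none in the C4-2-labelled ones, at least 35.5-fold lower. XAGE2 had 7 and 10 tags against 3 and 2 (log2 fold change -2.77 ± 0.64, adjusted p = 0.00399), a call that DESeq2 did not make (adjusted p = 0.0714). XAGE5 had 1 tag in all.

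PRAME, on chromosome 22, encodes the substrate receptor of a CUL2 ubiquitin ligase and a repressor of retinoic acid signalling, and is the 1 member chosen by its own name. It had 120 and 124 CPM in the LNCaP-labelled libraries and 84.7 and 82.0 in the C4-2-labelled ones, and the lines did not overlap. Its log2 fold change was -0.55 ± 0.041 (adjusted p = 4.95e-06) with TMM and 0.46 with library totals, so its direction depends on the scaling. ZNF280A, the nearest tested gene on 1 side, stood at -2.79 ± 0.61. It had 0.183 and 0.325 CPM in the LNCaP-labelled libraries and 0.0187 and 0.0593 in the C4-2-labelled ones. ZNF280A passed the filter on low counts only through the LNCaP-labelled libraries, so the filter fixed its direction. The nearest tested gene on the other side of PRAME stood at -1.7 ± 0.26.

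Along the X chromosome, members with large falls lay beside members with small changes. MAGEA1 begins 543.3 kb after the end of MAGEA3, and PAGE1 78.9 kb after that of GAGE1. All tested SSX, XAGE, PAGE, CT45 and CTAG genes fell, and GAGE and MAGE genes lie between them. Of those that fell, the SSX and CTAG genes, XAGE2, XAGE3, PAGE4 and PAGE5 passed the filter only through the LNCaP-labelled libraries. Their direction was therefore fixed by the filter. The GAGE genes stood between -0.62 and -0.04 with TMM and between 0.39 and 0.97 with library totals. Of the MAGE genes there, MAGEA1, MAGEA4 and MAGEA8 fell by more than 4-fold, MAGEC2, MAGEA3, MAGEA6 and MAGEA10 rose, MAGEA2 and MAGEA2B gave no call with TMM, and MAGEA12 stood at -0.50 (0.50 with library totals). Of 18 tested genes on the X chromosome nearest to the members with at least 1 CPM, 6 rose, 9 fell and 3 gave no call with TMM. Among these, SNORA11D, which rose, passed the filter on low counts only through the C4-2-labelled libraries. SPANXA2-OT1, which fell, needed the LNCaP-labelled ones, so the filter fixed the direction of both. Over all genes 40.2% were higher and 39.7% lower. Some of these neighbours are distant: UBE2NL lies 1674.1 kb and SPANXA2-OT1 552.1 kb from MAGEC2, and SNORA11D 846.5 kb from SSX2.

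**Figure D3:**
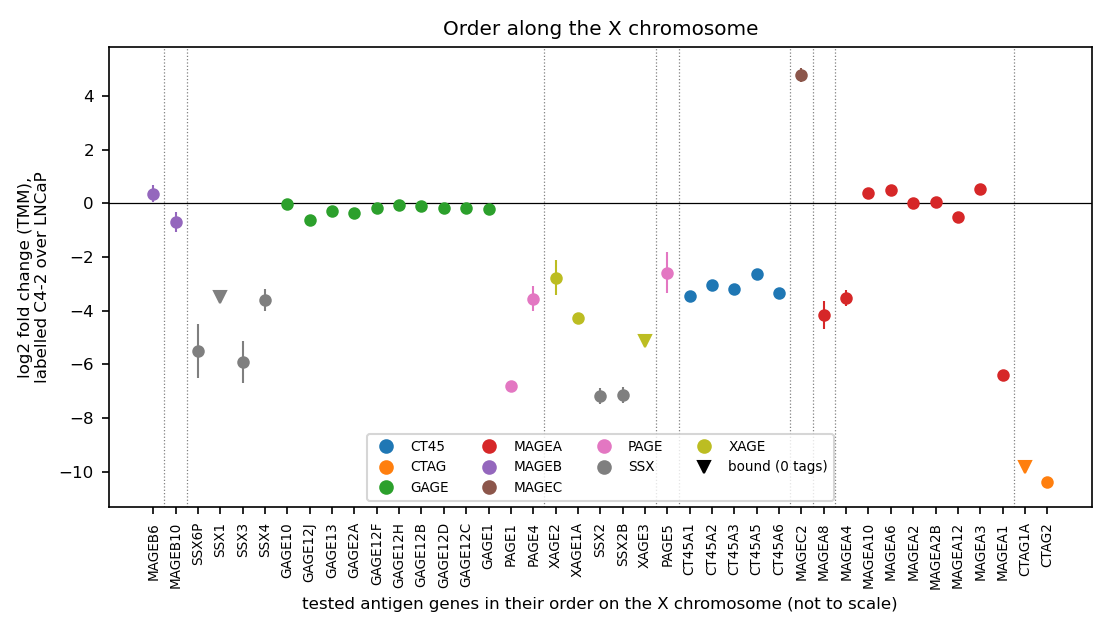
Log2 fold change with TMM (bar = 1 standard error, triangles are bounds for genes with 0 tags) of the 41 tested X-linked antigen genes in their order along the chromosome, coloured by family; dotted lines mark gaps over 1 Mb. GAGE10 to GAGE1 form a row just below 0 that moves above it with library totals, PAGE1 follows at -6.81, and MAGEA1 at -6.39 follows the MAGEA6 to MAGEA3 group.

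Around the CT45 cluster both neighbours were lower: INTS6L at -1.54 and SAGE1, itself a cancer-testis gene, at -1.18, a call that was lost with library totals (-0.17). The CSAG genes, cancer-testis genes placed among MAGEA2, MAGEA12 and MAGEA3, were lower, unlike MAGEA3. CSAG3 had 22.1 and 22.4 CPM in the LNCaP-labelled libraries and 8.30 and 7.82 in the C4-2-labelled ones, a log2 fold change of -1.46 ± 0.067. CSAG1 had 48.7 and 49.4 against 24.5 and 21.2, a log2 fold change of -1.10 ± 0.074 that was not called with library totals (-0.10). Beyond that cluster CETN2, a centriole gene, was at 0.33.

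Near MAGEA4 and MAGEA10 the GABA receptor subunit genes GABRE and GABRA3 stood at -2.76 and -0.82, GABRA3 turning to 0.18 with library totals, and PASD1 at -3.60. Next to MAGEA1, which fell, PNMA6A and ZNF275 rose by 0.70 and 0.49. IKBKG, 20.2 kb from CTAG1, rose by 0.58, and GAB3 on the other side stood at -0.07 (adjusted p = 0.874, and 0.92 with library totals). PPP1R3F, on 1 side of the GAGE cluster, rose by 1.24, and USP27X-DT beyond PAGE1 stood at -0.17 (adjusted p = 0.335, and 0.82 with library totals). MAGEC2, which rose, has SPANXA2-OT1 on 1 side at -3.08 and UBE2NL on the other at -0.22 (0.78 with library totals). SPANXA2-OT1 had 1.22 and 0.466 CPM in the LNCaP-labelled libraries, and its value was -2.26 without the first of them and -2.06 with both strands added. SSX2 and XAGE1 lie between SNORA11D at 1.35 and FAM156A at -0.01 (adjusted p = 0.934, and 0.99 with library totals). The calls of UBE2NL and SNORA11D were lost in most other settings, 4 of them leaving out a library for SNORA11D.

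The CTAGE genes, named for an antigen of cutaneous T-cell lymphoma, are relatives of a protein of secretory export and lie on several autosomes. All 8 were called lower with TMM, between -1.11 and -0.56, while with library totals they lay between -0.11 and 0.44, where 1 was called higher and 7 did not pass. Of the 50-base runs of CTAGE15, CTAGE6 and CTAGE4, 2.56%, 6.53% and 8.22% occur in no other member. Whether the counts of these copies share tags was not tested. CTAGE4 had 4.84 and 3.98 CPM in the LNCaP-labelled libraries and 2.55 and 2.76 in the C4-2-labelled ones (-0.73 with TMM, 0.28 with library totals). CTAGE10P had 1.73 and 1.67 CPM in the LNCaP-labelled libraries and 0.759 and 0.814 in the C4-2-labelled ones (-1.11 with TMM, -0.11 with library totals). CTAGE1, CTAGE9, CTAGE15, CTAGE11P, CTAGE7P and CTAGE6 stood at -0.99, -0.91, -0.92, -0.89, -1.05 and -0.56 with TMM, and of these only CTAGE7P stayed below 0 with library totals (-0.04). SSX2IP encodes a centrosome protein that binds SSX2. It had 120 and 111 CPM in the LNCaP-labelled libraries and 171 and 177 in the C4-2-labelled ones, a log2 fold change of 0.59 ± 0.051, so it rose where the tested SSX genes fell.

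Promoter windows were found for 58 of the 73 symbols. Those without are CT45A2, CT45A3, CT45A5, CT45A6, CTAG1A, CTAG1B, CTAG2, CTAGE10P, CTAGE11P, CTAGE7P, MAGEA1, MAGEA10, SSX3, SSX6P and SSX8P. Over the 52 antigen genes proper with a window, the median CpG number in 300 bases was 12 (range 1 to 21), against 14 over all 35116 windows. It was 16 for MAGE-A, 13 for GAGE, 12 for PAGE, 10 for SSX and XAGE and 9 for MAGE-B. Among symbols with a window, the 15 that fell by at least 4-fold had a median of 10 CpG, and the 3 that rose, MAGEA3, MAGEA6 and MAGEC2, had 19, 19 and 10. CTAG1, CTAG2 and MAGEA1, which fell, and MAGEA10, which rose, are not among them. These are descriptions with no test, and copies share their sequence.

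GGAAG, searched on both strands, was in 36 of the 52 windows (69.2%), against 71.9% of all windows. It was in 10 of 10 MAGE-A windows and 1 of 12 GAGE windows. The longer CCGGAAG, which contains GGAAG, was in 1 of 52 (1.92%), MAGEB6, against 10.3% of all windows. Single windows ranged from MAGEA2, with 17 CpG and GGAAG 2 times, through MAGEA4, with 11 and 1, to MAGEB1, with 1 CpG and GGAAG 2 times.

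Lists of related genes were measured beside the families. Type II MAGE genes share the MAGE homology domain but are made in most tissues. Of 12 in the data 9 were tested, 5 were higher and 2 lower, against 40.2% higher and 39.7% lower over all genes, with a median of 0.26. MAGED4 and MAGED4B rose by 1.33 and 1.31 and MAGEF1 by 0.56, while MAGED2 stood at -0.81 with TMM and 0.19 with library totals. Copies were not merged in this list, so MAGED4 and MAGED4B, with nearly the same fold changes, both count among the 5. Other X-linked cancer-testis genes were lower in 12 of 13 tested, with 0 higher and a median of -1.18, beside the same shares of all genes. Copies with the same tags were not merged in this list either, so NXF2 and NXF2B both count among the 12. The export factor genes NXF2 and NXF2B, with the same tags, had 37.5 and 39.7 CPM in the LNCaP-labelled libraries and 1.63 and 1.54 in the C4-2-labelled ones, a log2 fold change of -4.60 ± 0.075. PASD1, at -3.60, and CSAG3, at -1.46, are given above among the neighbours. With library totals 5 of this list were lower and 2 higher, where 10.5% of all genes were lower and 73.1% higher.

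Autosomal cancer-testis and germline genes were mixed: 4 of 19 tested were higher and 9 lower, 6 did not pass, and the median was -0.57. Over all genes 40.2% were higher and 39.7% lower. The RNA helicase gene DDX43 rose by 0.80 and the centriole gene ODF2 by 0.31, the phosphatase-like gene TPTE fell by 2.39, and ZNF165 stood at -1.0, a call that was lost with library totals. With library totals 7 were higher and 3 lower, where 73.1% of all genes were higher and 10.5% lower.

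**Figure D4:**
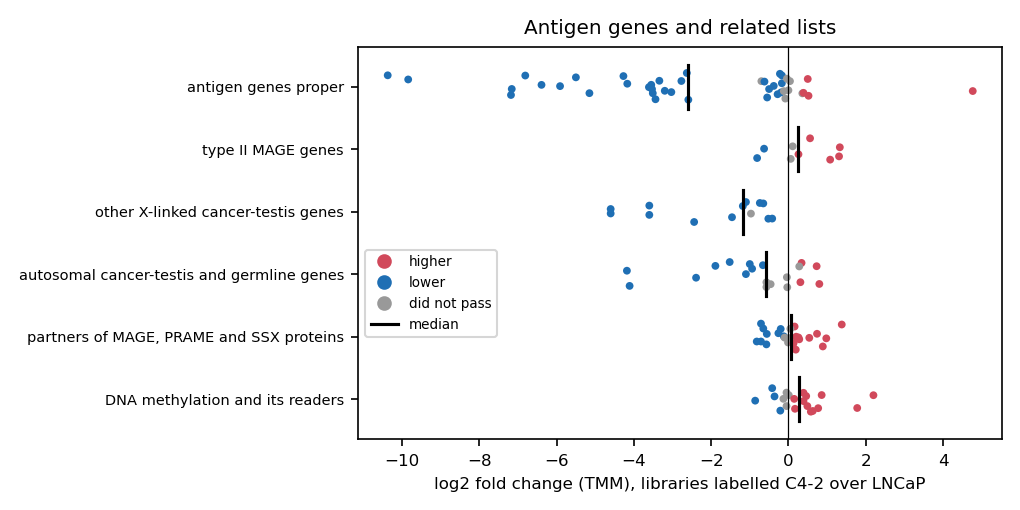
Log2 fold change with TMM of the tested genes in each list (points; red higher, blue lower, grey did not pass; bar = median; genes with 0 tags in the libraries labelled C4-2 are at their bound). Antigen genes proper have a median of -2.61 and other X-linked cancer-testis genes one of -1.18, while type II MAGE genes, partner genes and DNA methylation genes lie around 0, at medians of 0.26, 0.07 and 0.28.

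Genes of proteins that bind MAGE, PRAME or SSX proteins were spread around 0. Among 26 tested, 12 rose, 9 fell and 5 gave no call, against 40.2% higher and 39.7% lower over all genes, and the median was 0.07. The retinoid receptor gene RXRA rose by 0.98. ELOC, an adaptor of the ligase that holds PRAME, stood at -0.82, and EZH2, which PRAME is known to recruit, at -0.65, and both turned positive with library totals, at 0.18 and 0.35. With that scaling 25 of the 26 were higher and 0 lower, where 73.1% of all genes were higher and 10.5% lower.

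DNA methylation keeps antigen genes silent in somatic cells, and its writers and readers were measured beside them. Among 20 tested genes 12 rose, 4 fell and 4 gave no call, beside 40.2% higher and 39.7% lower of all genes, and the median was 0.28. UHRF1, which brings the maintenance methyltransferase to newly copied DNA, had 24.4 and 25.3 CPM in the LNCaP-labelled libraries and 117 and 111 in the C4-2-labelled ones, a log2 fold change of 2.20 ± 0.050. The remodeller gene HELLS rose by 1.78 and EHMT1, for a histone H3 methyltransferase, by 0.86. TDG, for a glycosylase of active demethylation, stood at -0.86 with TMM and 0.14 with library totals. With library totals 19 of the 20 were higher and 0 lower, beside 73.1% and 10.5% of all genes. Methylation itself was not measured here, and whether it has a part in these differences was not tested.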

How the data were processed

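RNA libraries of 2 prostate cancer lines, 2 per line, were compared. The submitters' processing notes name TopHat2 2.0.6, Bowtie and hg19 (GRCh37). Each deposited row is a RefSeq transcript with, per the file headers, tag counts and RPKM values for both strands (41351 rows). Values of near-identical copies are uncertain: the counting tool and its treatment of tags with several possible places are not stated in these sources. Sense tags were used; the opposite strand held 1.18% to 1.8%. RefSeq names of GRCh38.p14 (names only) matched 38974 of 40304 accessions, and rows without a symbol (2.06% to 2.15% of sense tags) stayed out. For each symbol the transcript holding the largest share of tags on average was kept. The totals recovered from the deposited RPKM values were 189.9, 197.6, 241.1 and 171.5 M tags.

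Counts were tested with edgeR 4.0.16 in R 4.3.3 (quasi-likelihood, TMM, filterByExpr with a minimum count of 10 and a minimum total of 15, cell line as the only term) over all symbols that passed. A fold change is C4-2 over LNCaP as labelled; its SE was derived from the F statistic, and the test was checked on simulated counts. Replicate counts differed beyond sampling noise (chi-square per degree of freedom 24.4 and 12.2), and the biological coefficient of variation was 6.43%. Counting intervals are exact conditional binomial at 95%, and 0 tags in a line were replaced by 3 over the group; both cover counting error only. Named were members that were called or had at least 10 tags (each library's value from 1 CPM upwards; other members by count, or by name after their values were seen), up to 4 called genes of each list by adjusted p, and the nearest tested gene on each side of members of at least 1 CPM. Members and lists were chosen with earlier results of these data known. Other settings were DESeq2 1.42.0 and its size factors, library totals, no filter, both strands added, transcripts summed, a replicate block, identical copies merged and leaving out each library. Runs of 50 bases came from the reference transcript nearest in length to the deposited exon length, for 61 members. The values of 1 gene that counts among the listed partners and markers are not reported here.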

Additional observations from a re-analysis of the deposited data

Results flagged for a closer look

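The sense strand was used for every result above, and for 5 members the opposite strand held the larger number of tags in a line. CTAGE7P had 340 opposite tags over both libraries labelled LNCaP (174 and 166) against 266 sense tags. MAGEB10 had 37 (19 and 18) against 35 sense tags in the same libraries. MAGEB1, with 0 sense tags, had 16 opposite tags over both libraries labelled C4-2 (6 and 10). SSX2 and SSX2B each had 7 (4 and 3) against 6 sense tags in those libraries, at the same position, so these are the same tags. What these tags come from was not tested.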

How the results depend on the processing

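With 2 libraries per line, these results hold for these libraries only. The counts of members and of listed genes called higher or lower stayed within 1.5 times their value with DESeq2 size factors, no filter, both strands, transcripts summed and copies merged. The exception for DESeq2 and for leaving out a library was type II MAGE genes called lower, 2 at first and 1 with DESeq2 and in each leave-one-out fit. Low depth limits SSX1, SSX3, SSX6P, PAGE5, XAGE2 and XAGE3, and SSX1, SSX6P, PAGE5 and XAGE2 could not be tested with library totals.

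With library totals, members called higher were 21 and lower 18; type II MAGE genes lower 0; other X-linked cancer-testis genes higher 2 and lower 5; autosomal genes higher 7 and lower 3; partner genes higher 25 and lower 0; DNA methylation genes higher 19 and lower 0; X-linked neighbours higher 10 and lower 5. These counts stand beside 73.1% higher and 10.5% lower of all genes with library totals. That scaling moves the median of all genes by its construction. It turned GAGE1 (0.78), GAGE10 (0.97), GAGE12B (0.89), GAGE12C (0.84), GAGE12D (0.84), GAGE12F (0.81), GAGE12H (0.92), GAGE12J (0.39), GAGE13 (0.72), GAGE2A (0.62), MAGEA12 (0.50), MAGEA2 (1.0), MAGEB10 (0.29), PRAME (0.46), CTAGE1 (0.01), CTAGE11P (0.11), CTAGE15 (0.09), CTAGE4 (0.28), CTAGE6 (0.44), CTAGE9 (0.09), ELOC (0.18), EZH2 (0.35), MAGED2 (0.19), TDG (0.14), FAM156A (0.99), GAB3 (0.92), GABRA3 (0.18), UBE2NL (0.78) and USP27X-DT (0.82) positive. Values near 0 changed sign in other settings too, and the cause was not tested. GAGE10 was 0.0025 with no filter, 0.0049 with both strands, 0.01 without LNCaP replicate 2, and from -0.28 to 0.19 over the fits that leave out a library. MAGEA2 was 0.02 with DESeq2, 0.04 with no filter, both strands or transcripts summed, 0.03 without C4-2 replicate 2, and from -0.05 to 0.05 over those fits. MAGEA2B was -0.0056 without LNCaP replicate 1 and at most 0.09 over those fits. FAM156A was 0.01 with DESeq2, 0.03 with no filter or both strands, 0.08 with transcripts summed, 0.02 without C4-2 replicate 1, and from -0.15 to 0.16 over those fits. GAB3 was 0.19 without C4-2 replicate 2 and ran from -0.45 to 0.24 over those fits.

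Same-numbered libraries of the 2 lines share only a number: their deviations had a correlation of -0.1. With the replicate number as a block, 5 members were called higher and 37 lower, GAGE12C and GAGE12D lost their calls (adjusted p = 0.0603 and 0.0596), and FAM156A was 0.00026. With crossed numbers as the block, chosen after the data were seen, 5 were higher and 39 lower. With members whose positions overlap counted once, also chosen after the data were seen, 5 of 46 were higher and 36 lower.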
